A study of Homo sapiens with 24 samples.

Results

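The 57 genes described here lie on the long arm of chromosome 14 beyond 60 Mb (GRCh38), from MNAT1 (chr14:60734742-60969953) to MTA1 (chr14:105419820-105470729), and are 57 of the 58381 gene IDs in the deposited table of RNA levels. They were chosen by position together with measured values: FPKM (fragments per kilobase of transcript, scaled to the mapped fragments of the library, a level per length) in this segment were lower in most libraries from miR-186 cells than in libraries from vector cells. The comparison of the constructs therefore selected these genes, and its values are a description with no test. Of the 57 genes, 54 averaged at least 0.5 FPKM over the 24 libraries and entered a fit of 14228 genes. VASH1, CCDC88C and EVL averaged 0.104, 0.373 and 0.135 FPKM and did not.

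The libraries come from HaCaT, an immortalised, non-malignant line of human skin keratinocytes, transduced with hsa-miR-186, a microRNA, or with an empty vector, and grown with or without inorganic arsenic (iAs), an environmental carcinogen of skin. The 8 groups of 3 libraries were miR-186 cells at 100 nM iAs and week 29, at 0 nM and week 29, at 100 nM and week 12 and at 0 nM and week 12, and vector cells at the same 4 settings. Each construct was carried by 3 clonal lines of 1 parent line. The labels speak of biological triplicates without tying a replicate number to a clone. P-values and standard errors (SE) therefore measure the spread between these libraries, which the main fit treats as independent. The series was made to examine mRNA changes under miR-186 overexpression during arsenic-driven skin carcinogenesis.

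All 10 keratinocyte markers looked up (KRT5, KRT14, KRT17, TP63, ITGA6, ITGB4, DSG3, SFN, PERP and CDH1) averaged at least 0.5 FPKM, and their summed level was 1575 to 5436 FPKM in miR-186 libraries and 2660 to 6144 FPKM in vector libraries. No immune marker of 4 reached 0.5 FPKM on average, with sums of 0.24 to 0.91 FPKM in miR-186 and 0.25 to 0.88 FPKM in vector libraries. Of 4 melanocyte markers 1 did, with sums of 0.73 to 1.72 FPKM in miR-186 and 0.91 to 2.37 FPKM in vector libraries, and TYR, the melanocyte tyrosinase, was at 0 in every library. Of 3 endothelial markers 1 did, with sums of 4.04 to 20.9 FPKM in miR-186 and 4.77 to 16.2 FPKM in vector libraries. Of 6 fibroblast markers 3 did, with sums of 1.75 to 95.6 FPKM in miR-186 and 2.09 to 25.7 FPKM in vector libraries. The part of these cell type markers in the results was not tested. FPKM summed to 712797 to 905683 per library. Relative depth, estimated from the low nonzero values of 17613 genes with a single transcript, ran from 0.825 to 1.08. In miR-186 libraries at 100 nM it was 0.871, 0.825 and 0.834 at week 12 and 0.896, 1.08 and 1.07 at week 29. In bulk RNA, fewer cells of a type and less RNA per cell cannot be told apart.

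The segment is not a pathway. Its genes share a chromosome arm and serve unrelated cell functions, among them transcription, RNA processing, Golgi and lysosome traffic, the actin cytoskeleton, lipid and energy metabolism, and signalling through the kinase AKT1. Genes that lie next to each other can share their chromatin state and, in cultured clones, the number of copies of the segment that carries them. Copy number is measured on DNA. The files hold RNA levels alone, so the dosage of the segment was not tested.

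Nearly the whole set was lower in miR-186 than in vector libraries. On the log2(FPKM + 0.5) scale, on which changes of low genes are understated, the difference of miR-186 minus vector averaged over the 4 pairs of groups had a median of -0.48 over the 54 genes, which is 71.5% of the vector level, and the middle 50% of genes lay between -0.62 and -0.41. It was below 0 for 53 of 54, against 51.9% of all genes tested, whose median was -0.01. The difference lay between -0.7 and -0.3 for 37 genes, at or under -0.7 for 9 and at or above -0.3 for 8. The range ran from -2.30 for CKB to 0.01 for SNAPC1, and 49 of the 54 genes were below 0 in all 4 pairs of groups.

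Within each pair of groups the same direction was seen, here before any correction for the G and C content of genes. The median difference over the 54 genes was -0.38 at 100 nM and week 29, -0.32 at 0 nM and week 29, -0.64 at 100 nM and week 12 and -0.69 at 0 nM and week 12, while the median over all genes stayed between -0.04 and 0.02. All 3 miR-186 libraries were under all 3 vector libraries for 27 of 54 genes at 100 nM and week 29, where this held for 6.8% of all genes tested. The count was 33 at 0 nM and week 29 (12.1% of all genes), 39 at 100 nM and week 12 (9.85%) and 39 at 0 nM and week 12 (15.1%). Over 12 against 12 libraries the levels of 5 of the 54 did not overlap, CKB, DLST, FUT8, SLC39A9 and SPTLC2, against 0.358% of all genes. The rule that chose the genes used this contrast, so nothing is read from these counts.

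**Figure D1:**
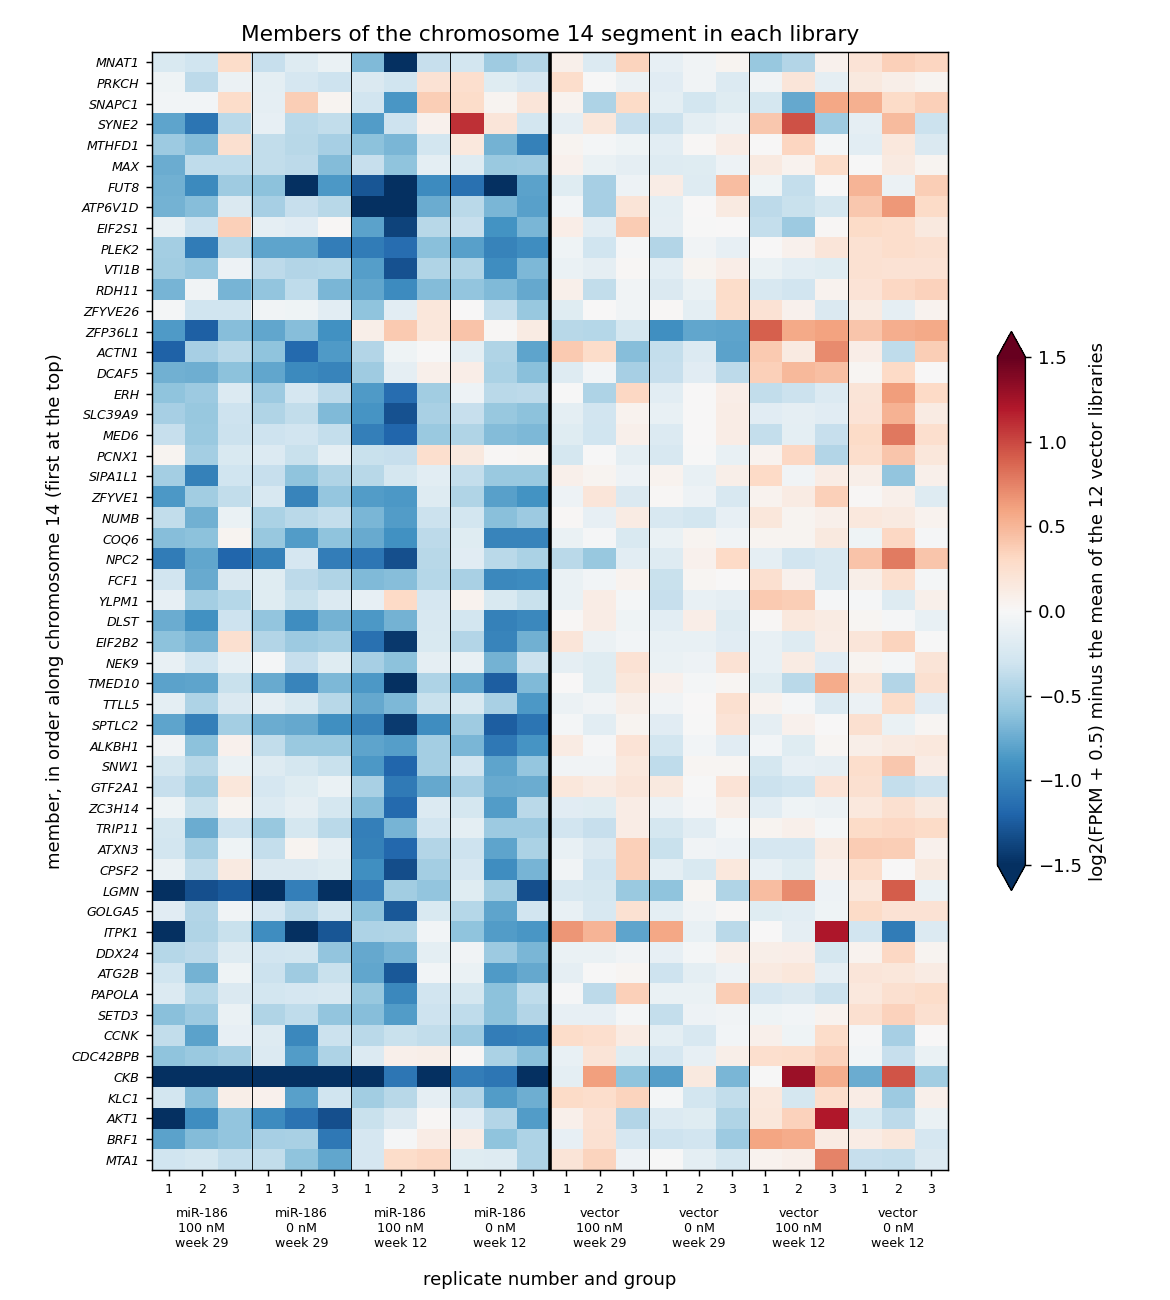
Level of each of the 54 genes (rows, in order along chromosome 14) in each of the 24 libraries (columns, replicate number below), as log2(FPKM + 0.5) minus the mean of the 12 vector libraries, with blue for lower and red for higher and colours ending at -1.5 and 1.5. The 12 miR-186 columns on the left are mostly blue, CKB most of all with a difference of -2.30, and SNAPC1, at 0.01, holds both colours.

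The 8 genes of metabolism and transport had the lowest median difference of the 6 role groups, -0.66, and all 8 were below 0. CKB (ENSG00000166165, chr14:103519659-103523111, minus strand) encodes brain-type creatine kinase, which buffers ATP. It had 2.66, 8.56 and 9.44 FPKM in miR-186 libraries at 100 nM and week 29, and 36.1, 61.6 and 26.1 FPKM in vector libraries. At week 12 and 100 nM it had 6.13, 18.6 and 6.64 FPKM in miR-186 libraries and 39.8, 97.9 and 58.3 FPKM in vector libraries. The highest of the 12 miR-186 libraries, 19.1 FPKM, lay under the lowest of the 12 vector libraries, 22.2 FPKM, and the spread within groups was wide, with 13.1 ± 9.90 FPKM in miR-186 and 42.9 ± 30 FPKM in vector libraries at 0 nM and week 12 (SD, n = 3 each). Its averaged difference was -2.30 ± 0.34 (SE).

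SPTLC2 (ENSG00000100596, chr14:77505997-77616773, minus strand), as a subunit of serine palmitoyltransferase, starts sphingolipid synthesis. Its lowest, median and highest levels were 10.5, 15.3 and 20.5 FPKM in the 12 miR-186 libraries and 26.2, 29.3 and 34.7 FPKM in the 12 vector libraries. The difference was -0.92 ± 0.09, and each construct kept to its own range. DLST (ENSG00000119689, chr14:74881891-74903745, plus strand), a subunit of the 2-oxoglutarate dehydrogenase complex of the citric acid cycle, ran from 43.5 through a median of 53.2 to 74.5 FPKM in miR-186 libraries and from 77.4 through 89.7 to 99 FPKM in vector libraries. Its 3 highest miR-186 libraries, at 74.5, 73.3 and 71.1 FPKM close under the lowest vector library, were replicate 3 at 100 nM and week 12, replicate 1 at 0 nM and week 12 and replicate 3 at 100 nM and week 29. SLC39A9, a zinc transporter of the secretory pathway, had 17.3, 29.9 and 35.1 FPKM (lowest, median, highest) in miR-186 libraries and 35.6, 41.9 and 62.5 FPKM in vector libraries, so that the constructs met without overlapping. The folate enzyme MTHFD1 (34.8 to 83.3 FPKM in miR-186, 60.9 to 88.4 FPKM in vector libraries) and the retinol dehydrogenase RDH11 (35.1 to 65.4 FPKM in miR-186, 52.7 to 86.4 FPKM in vector libraries) overlapped between constructs.

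Promoters of 3 genes are shown because they span the range of the set: CKB had the lowest difference, SPTLC2 was low without overlap between constructs, and SNAPC1 had a difference close to 0. Each window holds 250 bases before to 50 after the transcription start in RefSeq annotation of GRCh38.p14, 5′ to 3′ on the gene's strand. The windows are CKB chr14:103522781-103523080 (minus strand), SPTLC2 chr14:77616588-77616887 (minus strand) and SNAPC1 chr14:61762170-61762469 (plus strand). Capitals mark core promoter motifs searched on both strands. One is TATAAA, the core of the TATA box. Another is CCAAT, the core of the box bound by NF-Y. The last is GGGCGG, the GC box bound by Sp1. Adjoining capitals can belong to 2 motifs.
CKB: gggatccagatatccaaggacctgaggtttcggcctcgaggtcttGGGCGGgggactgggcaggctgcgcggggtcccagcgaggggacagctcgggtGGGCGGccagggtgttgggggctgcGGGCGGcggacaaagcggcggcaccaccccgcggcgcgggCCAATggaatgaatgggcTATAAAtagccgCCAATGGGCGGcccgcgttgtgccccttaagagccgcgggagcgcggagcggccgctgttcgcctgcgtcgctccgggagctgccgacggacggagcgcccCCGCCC
SPTLC2: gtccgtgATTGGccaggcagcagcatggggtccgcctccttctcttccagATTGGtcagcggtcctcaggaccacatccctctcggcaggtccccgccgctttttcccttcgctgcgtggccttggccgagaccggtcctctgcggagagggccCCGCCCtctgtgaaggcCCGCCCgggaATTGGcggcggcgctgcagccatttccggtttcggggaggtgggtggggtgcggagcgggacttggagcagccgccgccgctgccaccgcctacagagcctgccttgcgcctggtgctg
SNAPC1: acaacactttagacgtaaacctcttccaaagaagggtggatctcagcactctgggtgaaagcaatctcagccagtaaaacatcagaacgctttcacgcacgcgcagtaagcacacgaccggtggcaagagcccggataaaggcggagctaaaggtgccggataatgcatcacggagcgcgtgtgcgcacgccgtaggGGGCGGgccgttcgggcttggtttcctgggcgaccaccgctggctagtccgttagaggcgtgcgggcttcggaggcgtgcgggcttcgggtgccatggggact
The CKB window, at 72.3% G and C, held 1 TATAAA, 2 CCAAT and 5 GGGCGG matches, and the CCAAT and GGGCGG letters did not share bases in any of these windows. The SPTLC2 window held 3 CCAAT and 2 GGGCGG matches, and the SNAPC1 window 1 GGGCGG match alone.

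Of the listed genes, 54 of 57 had at least 1 such window in the RefSeq table, 83 windows in all. GGGCGG was in 57.8% of the 83, against 45.0% of all 35116 windows of the same length. CCAAT was in 27.7% against 34.6%, and TATAAA in 8.43% against 11.5%. Counted per gene, GGGCGG was in 70.4% of the 54, against 48.3% of all genes with a window. CCAAT was then in 42.6% against 39.7%, so its direction depended on the unit counted. TATAAA stayed less frequent in the set. The median G and C share was 63.3% over the 83 windows and 58.7% over all windows. The 54 genes with a window were taken from the 57 listed, not from those in the fit. All genes with a window were not limited to genes in the fit either, so level was not matched. Windows per gene also differed, with 83 for 54 genes here and 35116 for 27305 genes in all. The part of level and of window number in these shares was not tested. These are matches of letters in annotated windows, and no binding was measured.

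The 12 genes of membrane traffic, Golgi and lysosome had a median difference of -0.61, all below 0. FUT8 (ENSG00000033170, chr14:65410592-65744121, plus strand), the fucosyltransferase that adds core fucose to N-glycans, had 18.7, 15.8 and 21.3 FPKM in miR-186 libraries at 100 nM and week 29 and 27.3, 21.9 and 29.4 FPKM in vector libraries. At 0 nM and week 12 it had 14.1, 4.95 and 17.5 FPKM in miR-186 libraries and 44.5, 29.1 and 40.3 FPKM in vector libraries. Replicate 2 was the lowest of the 3 in both constructs, and the sets of 12 did not overlap, with an averaged difference of -1.23 ± 0.20. LGMN, the lysosomal protease legumain, had 14.3, 21.5 and 42.7 FPKM (lowest, median, highest) in miR-186 and 31.7, 45.4 and 91.1 FPKM in vector libraries, a difference of -1.04 ± 0.14 with overlap.

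The most abundant of this group were TMED10, a cargo receptor of vesicles between the endoplasmic reticulum and the Golgi, and NPC2, which hands cholesterol out of the lysosome. TMED10 had 127, 213 and 293 FPKM in miR-186 libraries and 271, 374 and 541 FPKM in vector libraries, with 11 of 12 miR-186 libraries under the lowest vector library. NPC2 had 143, 192 and 316 FPKM in miR-186 libraries and 239, 322 and 612 FPKM in vector libraries, with 7 of 12 under it. Differences were -0.82 ± 0.13 and -0.77 ± 0.11. VTI1B, a SNARE of late endosomes, was at 39.4 to 93.7 FPKM in miR-186 and 87.2 to 116 FPKM in vector libraries, and ZFYVE26, a large protein of autophagy and lysosome reformation, had one of the smallest differences, -0.20 ± 0.09.

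The 12 genes of RNA processing and translation had a median difference of -0.44 and ranged from -0.62 for EIF2B2, a subunit of the exchange factor of eIF2, to -0.20 for YLPM1, a nuclear RNA-binding protein. EIF2S1, the alpha subunit of eIF2 whose phosphorylation slows translation, was the most abundant, with 57.5, 121 and 195 FPKM in miR-186 libraries and 104, 153 and 197 FPKM in vector libraries. SNW1, a splicing and transcription cofactor, had 59.1, 104 and 126 FPKM in miR-186 libraries and 104, 134 and 179 FPKM in vector libraries. PAPOLA, the nuclear poly(A) polymerase, had 53.9, 86.9 and 92.1 FPKM in miR-186 libraries and 80.5, 102 and 136 FPKM in vector libraries. The 3 genes overlapped between constructs, with differences of -0.41 ± 0.11, -0.48 ± 0.08 and -0.39 ± 0.09.

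In the transcription group of 8 genes the median was -0.44 and 7 were below 0. MED6, a subunit of the Mediator complex, had 19.4, 31.5 and 36.5 FPKM in miR-186 libraries and 34.8, 42.8 and 77.5 FPKM in vector libraries. CCNK, the cyclin of CDK12 and CDK13, had 22.6, 35.7 and 43.0 FPKM in miR-186 and 33.0, 46.7 and 57.1 FPKM in vector libraries. SNAPC1, a subunit of the complex that starts small nuclear RNA transcription, had 4.30, 8.55 and 10.9 FPKM in miR-186 and 4.65, 8.04 and 12.7 FPKM in vector libraries, which cover each other nearly whole, and its difference was 0.01 ± 0.15.

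Among the 8 genes of cytoskeleton, adhesion and polarity in the fit the median was -0.44, and it was -0.37 among the 6 of signalling and protein turnover. ACTN1, alpha-actinin, which bundles actin at adhesions, had 48.5, 81.7 and 113 FPKM in miR-186 libraries and 65.0, 123 and 186 FPKM in vector libraries. PLEK2, a pleckstrin family protein of the cortical actin, had 24.1, 29.2 and 40.4 FPKM in miR-186 and 39.7, 53.9 and 65.0 FPKM in vector libraries, a difference of -0.85 ± 0.08 in which only the single library of 40.4 FPKM reached the vector range. AKT1, the survival kinase, had 9.20, 16.2 and 27 FPKM in miR-186 and 19.4, 24.3 and 62.4 FPKM in vector libraries. PRKCH, a protein kinase C of stratified epithelia, and PCNX1, a membrane protein, each had a difference of -0.14, with overlapping ranges. PRKCH had 10.8 to 17.2 FPKM in miR-186 and 12.4 to 17.3 FPKM in vector libraries, and PCNX1 16.4 to 28.2 FPKM in miR-186 and 17.3 to 31.7 FPKM in vector libraries.

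**Figure D2:**
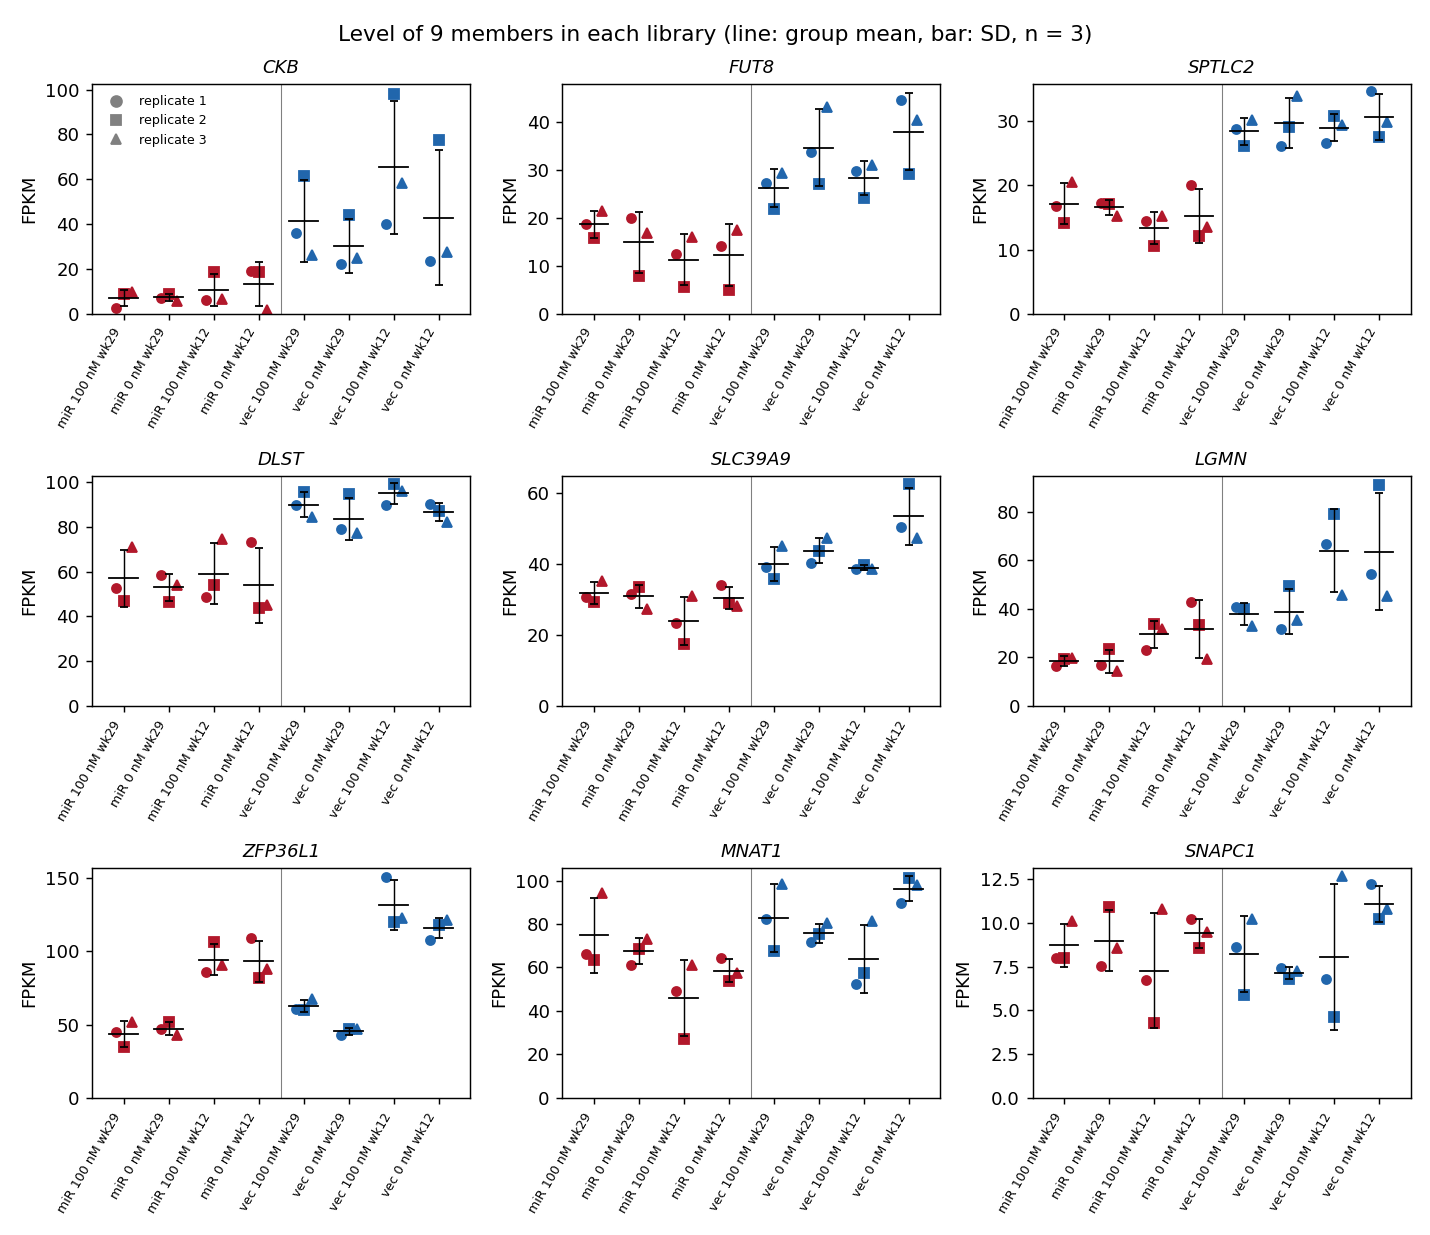
FPKM of 9 genes in each library (points, shaped by replicate number), with the mean (line) and SD (bar) of each group of 3, for miR-186 (red, miR) left of vector (blue, vec), by iAs dose in nM and week (wk). CKB, FUT8, SPTLC2, DLST and SLC39A9 do not overlap between constructs, ZFP36L1 is lower at week 29 than at week 12 in both constructs, and SNAPC1 overlaps throughout.

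The size of the difference was not even over the miR-186 libraries. As a median over the 54 genes, set against the mean of the 12 vector libraries, it was -0.50, -0.56 and -0.22 for replicates 1, 2 and 3 at 100 nM and week 29, and -0.37, -0.40 and -0.45 at 0 nM and week 29. It was -0.72, -0.83 and -0.28 at 100 nM and week 12, and -0.27, -0.66 and -0.67 at 0 nM and week 12. The 3 libraries nearest 0 were thus replicate 3 of both 100 nM groups and replicate 1 at 0 nM and week 12, and they share no single number, dose or week. Vector libraries ran from -0.16 to 0.23. Each of the 12 miR-186 libraries lay under each of the 12 vector libraries, but between 18 and 47 of the 54 genes were under their own lowest vector value, 18 of them in replicate 3 at 100 nM and week 29 and 47 in replicate 2 of the same group.

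Libraries also differ in how level follows the G and C content of genes, from a slope of -0.427 per 10 percentage points in replicate 1 at 100 nM and week 29 to 0.432 in replicate 2 at 100 nM and week 12 among miR-186 libraries, and from -0.333 to 0.484 among vector libraries. After a spline correction of each library for gene GC content, the medians were -0.56, -0.56 and -0.28 at 100 nM and week 29 and -0.44, -0.55 and -0.56 at 0 nM and week 29. They were -0.66, -0.67 and -0.24 at 100 nM and week 12 and -0.22, -0.58 and -0.65 at 0 nM and week 12. The same 3 libraries stayed nearest 0, the vector range narrowed to -0.10 to 0.11, and the median over miR-186 minus vector averages was -0.50.

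**Figure D3:**
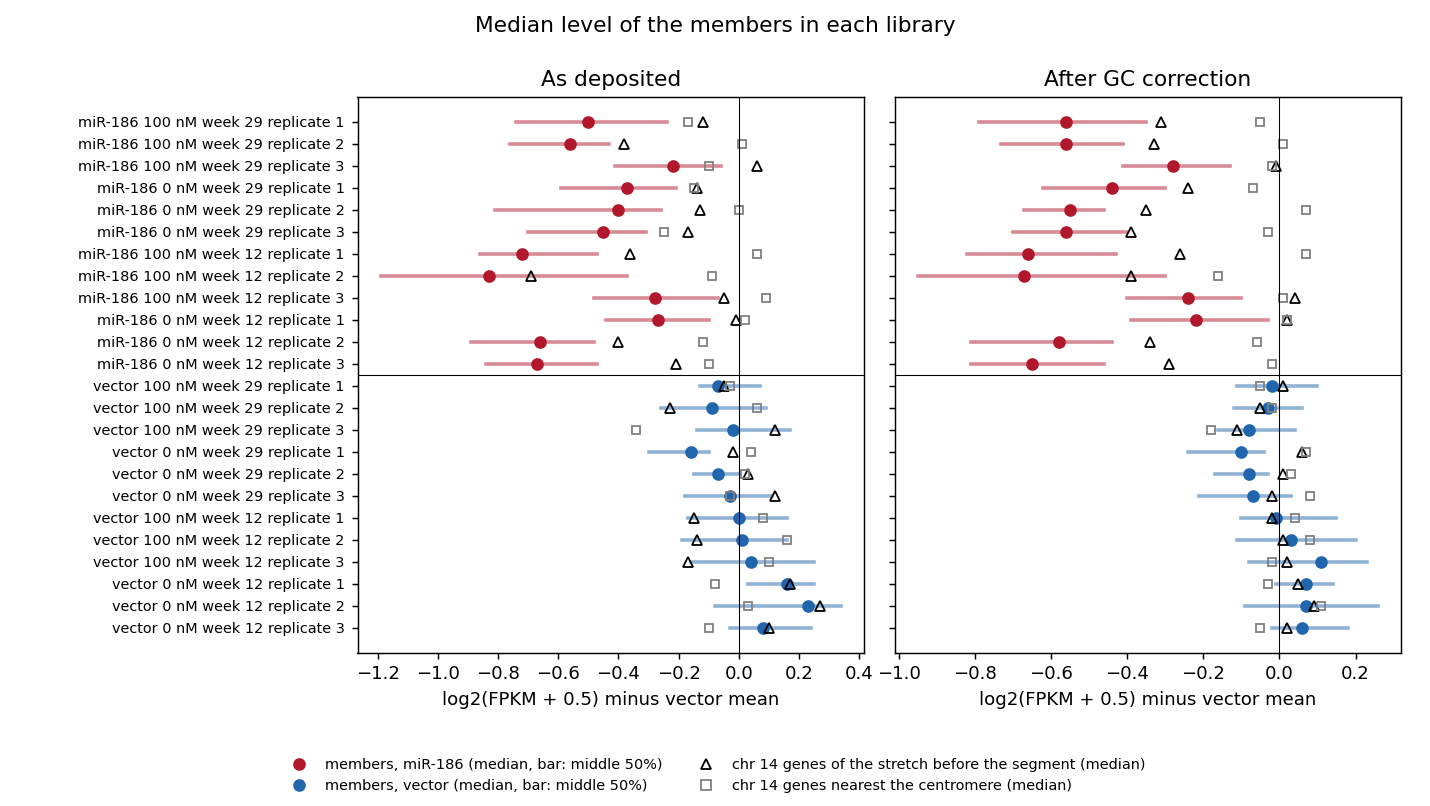
Median over the 54 genes in each library (filled point, bar for the middle 50% of genes) as log2(FPKM + 0.5) minus the vector mean, before (left) and after (right) correction for GC content, with medians of chromosome 14 genes from 30 to 60 Mb (triangle) and below 30 Mb (square). Every miR-186 library lies left of every vector library for the 54 genes, and 3 miR-186 libraries lie nearest 0, at -0.22, -0.24 and -0.28 after correction.

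Other genes of the segment were also lower. The segment was chosen for being lower in most miR-186 libraries, so nothing is read from this. The other 223 genes of chromosome 14 beyond 60 Mb in the fit had a median averaged difference of -0.46, with 202 below 0. The 127 genes from 30 to 60 Mb had a median of -0.20 and the 96 genes below 30 Mb one of -0.04, stretches that were set after the values were seen. At the 60 Mb boundary, the last genes before it in the fit, DAAM1, L3HYPDH and JKAMP, had differences of -0.34, 0.09 and -0.28. PCNX4, DHRS7, PPM1A and SIX4, which lie beyond 60 Mb but before MNAT1 and are not among the 57, had -0.37, -0.12, -0.11 and 0.00. The first listed genes by position, MNAT1, PRKCH, SNAPC1 and SYNE2, had -0.39, -0.14, 0.01 and -0.27. The listed genes after them, from MTHFD1 (-0.45) and MAX (-0.44) to MTA1 (-0.26), had differences between -2.30 and -0.14, while 21 of the 223 other genes beyond 60 Mb were above 0. Over the 54 genes their Spearman rho was -0.08 with position, -0.15 with level, -0.18 with GC content and 0.33 with longest annotated transcript length.

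The stretch before the segment differed between libraries. After GC correction, the median of the 127 genes from 30 to 60 Mb was -0.31, -0.33 and -0.01 for replicates 1, 2 and 3 of miR-186 libraries at 100 nM and week 29, and -0.24, -0.35 and -0.39 at 0 nM and week 29. It was -0.26, -0.39 and 0.04 at 100 nM and week 12, and 0.02, -0.34 and -0.29 at 0 nM and week 12, where vector libraries ran from -0.11 to 0.09. The 3 libraries inside the vector range in this stretch were the same 3 whose 54 genes lay nearest 0. Below 30 Mb the medians were -0.16 to 0.07 in miR-186 and -0.18 to 0.11 in vector libraries.

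A running median over 21 genes gave the same picture at a finer scale. In replicate 3 at 100 nM and week 29 it lay under all 12 vector libraries at 80.5% of positions beyond 60 Mb but at 4.72% from 30 to 60 Mb. The shares were 58.8% and 4.72% in replicate 3 at 100 nM and week 12, and 61.0% and 2.36% in replicate 1 at 0 nM and week 12. In the other 9 miR-186 libraries they were 97.8% to 100% and 95.3% to 100%. Below 30 Mb the shares overlapped: 20.9% in replicate 3 at 100 nM and week 29, 4.65% in replicate 3 at 100 nM and week 12, 0% in replicate 1 at 0 nM and week 12, and 12.8% to 45.3% in the other 9.

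**Figure D4:**
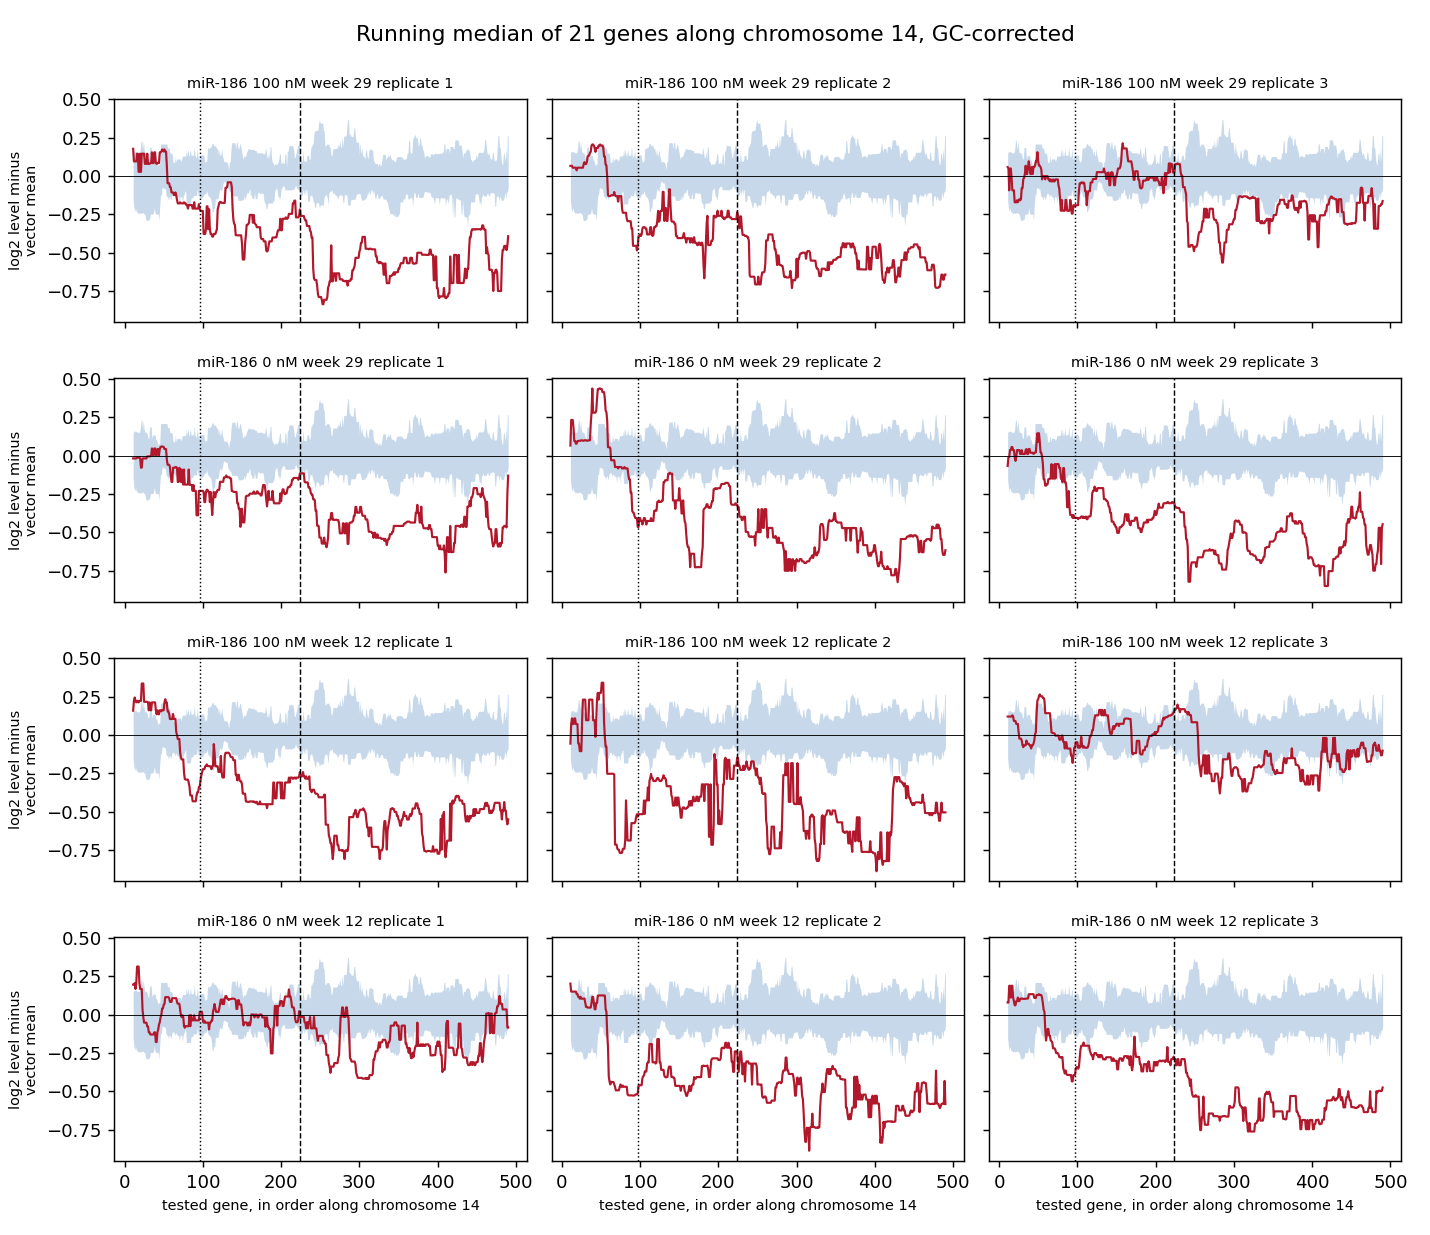
Running median of 21 tested genes along chromosome 14 (x axis, gene order) in each miR-186 library (red line), GC-corrected and set against the mean of the vector libraries, over the range of the 12 vector libraries (blue band). The dotted and dashed lines mark the first genes from 30 Mb and beyond 60 Mb. Beyond the dashed line every red line is mostly under the band, and between the lines 3 of 12 run within it.

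Of the 4 iAs comparisons, 1 called a gene of the 54, a share close to that of all genes called there. In vector libraries at week 12, MED6 had 34.8, 40.5 and 35.2 FPKM at 100 nM and 54.5, 77.5 and 53.3 FPKM at 0 nM, without overlap. Its change of -0.72 ± 0.165 passed the test (adjusted p = 0.0443, limma with Benjamini-Hochberg adjustment over 14228 genes), 1 of 54 genes beside 1.38% of all genes. With the GC correction the change was -0.37 (adjusted p = 0.249), and leaving out any 1 of the 6 libraries ended the call. The call held in 6 of 17 alternative fits. In vector libraries at week 29, limma called 0 of 54 genes and 0% of all genes, with 2 of 54 and 555 of all genes at an unadjusted p under 0.05.

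In miR-186 libraries the iAs comparison called 0 of 54 at week 29 (0% of all genes, and 0 of 54 and 312 of all genes at an unadjusted p under 0.05). At week 12 limma also called 0 of 54 (0%, with 6 of 54 and 1558 of all genes at an unadjusted p under 0.05). ATP6V1D, a subunit of the proton pump of lysosomes, came nearest. It had 23.5, 19.2 and 41.8 FPKM at 100 nM and 53.2, 43.5 and 39.8 FPKM at 0 nM, which overlap, and its change of -0.75 ± 0.22 missed the threshold (adjusted p = 0.348).

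ZFP36L1 was lower at week 29 than at week 12 in all 4 comparisons of the weeks. ZFP36L1 (ENSG00000185650, chr14:68787660-68796253, minus strand) encodes a zinc finger protein that binds AU-rich elements and speeds mRNA decay. In miR-186 libraries at 100 nM it had 44.7, 34.5 and 51.7 FPKM at week 29 and 85.7, 106 and 90.8 FPKM at week 12, and at 0 nM 46.8, 51.6 and 42.7 FPKM at week 29 and 109, 82.1 and 88 FPKM at week 12. In vector libraries at 100 nM it had 60.6, 59.8 and 67.4 FPKM at week 29 and 151, 120 and 123 FPKM at week 12, and at 0 nM 42.6, 47.0 and 46.7 FPKM at week 29 and 108, 118 and 121 FPKM at week 12. The weeks did not overlap in any of the 4, and week 29 was the low one each time.

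In limma, ZFP36L1 fell by 1.12 at 100 nM (adjusted p = 0.000505, Benjamini-Hochberg) and by 0.97 at 0 nM (adjusted p = 0.00116) in miR-186 libraries, with an SE of 0.147 throughout. In vector libraries it fell by 1.06 at 100 nM (adjusted p = 0.00139) and by 1.34 at 0 nM (adjusted p = 5.74e-05). It was the 1 gene of the 54 called in vector libraries at 100 nM, in vector libraries at 0 nM and in miR-186 libraries at 0 nM, beside 0.183%, 0.907% and 2.9% of all genes. At miR-186 0 nM, 3 genes were called without replicate 3 of week 12. Of the 17 alternative fits of each comparison it passed in 17, 17 and 17 at miR-186 100 nM, miR-186 0 nM and vector 0 nM, and in 16 at vector 100 nM, where a fit to the 2 compared groups alone gave an adjusted p of 0.202. The difference of this week change, miR-186 minus vector and averaged over the doses, was 0.15 ± 0.147.

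In miR-186 libraries at 100 nM, 10 of the 54 genes changed between the weeks, 7 higher and 3 lower at week 29, beside 12.2% of all genes. EIF2S1 had 141, 122 and 195 FPKM at week 29 and 87.2, 57.5 and 114 FPKM at week 12 (0.85 ± 0.219, adjusted p = 0.0216, limma with Benjamini-Hochberg adjustment). ATP6V1D had 43.0, 45.2 and 60.4 FPKM at week 29 and 23.5, 19.2 and 41.8 FPKM at week 12 (0.87 ± 0.22, adjusted p = 0.02). CPSF2, a subunit of the cleavage and polyadenylation factor, had 45.7, 38.0 and 54.2 FPKM at week 29 and 25.7, 19.2 and 34.4 FPKM at week 12 (0.81 ± 0.205, adjusted p = 0.0198). These 3 were higher without overlap of the weeks, and in each the replicate 2 library of week 12 was the lowest.

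The other risers were MNAT1, an assembly factor of the CDK-activating kinase (0.75), SNW1 (0.59), MED6 (0.51) and ALKBH1, a nucleic acid demethylase (0.51). AKT1 had 9.20, 13.8 and 17.7 FPKM at week 29 and 21.2, 22.9 and 27 FPKM at week 12, a change of -0.82 ± 0.255 without overlap (adjusted p = 0.0421, limma with Benjamini-Hochberg adjustment). CDC42BPB, a kinase that acts on myosin downstream of CDC42, was the third gene to fall, with -0.55, after ZFP36L1 and AKT1.

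The direction of these changes went with the composition of the genes. The 7 that rose have 38.8% to 46.9% G and C and the 3 that fell 54.4% to 60.3%, and over the 54 genes the week difference had a Spearman rho of -0.75 with GC content, across genes that share the same 6 libraries. With the GC correction 1 of the 54 was called, ZFP36L1 at -0.95 (adjusted p = 0.00528). EIF2S1 then stood at 0.51 (adjusted p = 0.0931) and AKT1 at -0.30 (adjusted p = 0.256). Without replicate 2 of week 12, the miR-186 library with the GC slope of 0.432, 1 of 54 was called too, and 2 without replicate 1 or without replicate 3 of week 29. With the replicate number as a block, a pairing assumed from the data and not shown by it, the count was 18. With block and GC correction together 3 were called by limma with Benjamini-Hochberg adjustment: ZFP36L1 at -0.95 (adjusted p = 0.00256), CPSF2 at 0.48 (adjusted p = 0.0283) and EIF2S1 at 0.51 (adjusted p = 0.0488). AKT1 then stood at -0.30 (adjusted p = 0.177).

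**Figure D5:**
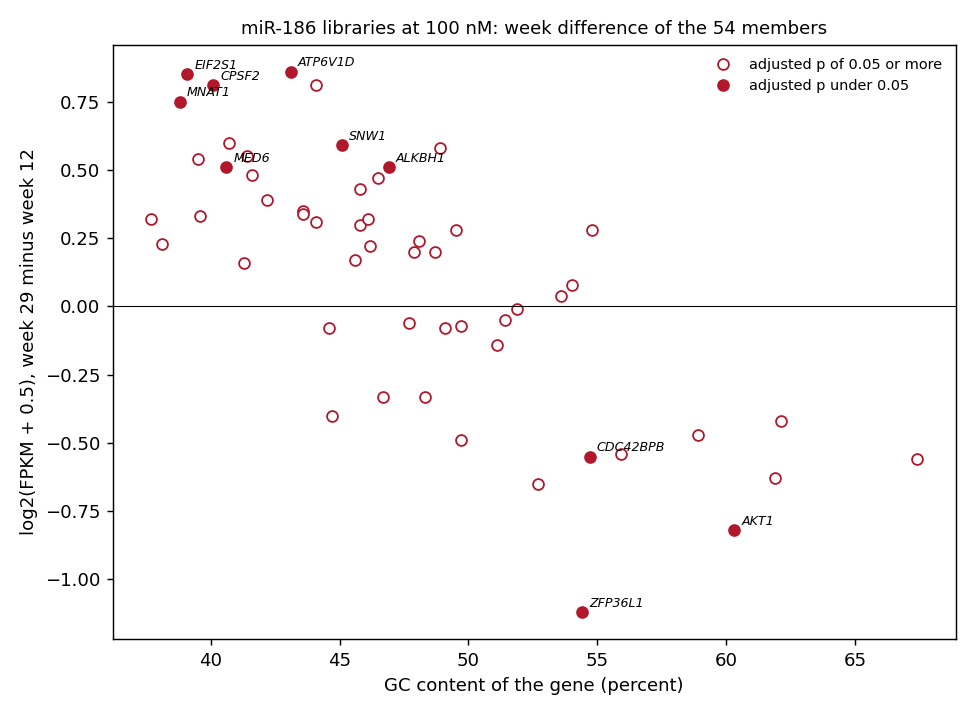
Difference of week 29 minus week 12 in miR-186 libraries at 100 nM (y axis, log2(FPKM + 0.5)) against the GC content of each of the 54 genes (x axis, percent), filled where limma's adjusted p was under 0.05. Genes with 38.8% to 46.9% G and C include the 7 that rose, and those with 54.4% to 60.3% the 3 that fell.

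The difference between constructs was not shown to depend on week or dose. The median of the change in construct difference at week 29 against week 12 over the 54 genes was 0.23, against 0.05 over all genes, and limma called 0 of 54 and 0% of all genes, with 16 of 54 and 1894 of all genes at an unadjusted p under 0.05. Without the 4 vector libraries of replicate 3 it called 3 of 54. MED6 had the smallest p, with 0.55 ± 0.165 (adjusted p = 0.249, limma with Benjamini-Hochberg adjustment). For 100 nM against 0 nM the median was 0.00, against -0.02 over all genes, and limma called 0 of 54 and 0% of all genes, with 2 of 54 and 396 of all genes at an unadjusted p under 0.05. These values are without the GC correction. With it, library medians at week 12 averaged -0.48 in miR-186 and 0.07 in vector libraries at 0 nM, and -0.52 and 0.04 at 100 nM. At week 29 they averaged -0.52 and -0.08 at 0 nM, and -0.47 and -0.04 at 100 nM. Uncorrected, they were -0.53 and 0.16, -0.61 and 0.02, -0.41 and -0.09, and -0.43 and -0.06 in the same order. The part of GC content in the week change was not tested.

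Libraries that share a replicate number within the miR-186 construct differed from the other numbers for 2 of 54 genes, beside 5.97% of all genes (limma F test with Benjamini-Hochberg adjustment). FUT8 (adjusted p = 0.00158) had 15.8, 7.76, 5.45 and 4.95 FPKM in replicate 2, 18.7, 20.0, 12.4 and 14.1 FPKM in replicate 1 and 21.3, 16.8, 15.9 and 17.5 FPKM in replicate 3, each in the order 100 nM and 0 nM of week 29, then of week 12. GOLGA5, a Golgi coiled-coil protein, was the other (adjusted p = 0.0364), with 48.1, 49.3, 26.8 and 37.6 FPKM in replicate 2 and 42.4 to 62.9 FPKM in replicates 1 and 3. Within vector libraries 0 of 54 were called, beside 6.18% of all genes, with 4 of 54 and 2716 of all genes at an unadjusted p under 0.05, and TMED10 had the smallest p (adjusted p = 0.116). Without 1 miR-186 library at a time the count within that construct was between 1 and 4. Whether a replicate number marks 1 clone was not tested.

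Genes whose levels followed the library median of the 54 most closely were ranked by Pearson's r over the 24 libraries, a description in which the construct difference itself counts. That difference also chose the segment, so nothing is read from the share of its genes among the closest. Of the 100 closest outside the set (r from 0.81 to 0.93), 43 lie on chromosome 14 and 34 of these beyond 60 Mb, a stretch that holds 1.57% of all genes outside the set. ENTPD5, also on chromosome 14, was at 0.93, and its span overlaps COQ6 of the set on the opposite strand. Off chromosome 14, SLC25A12 (r 0.91) had 7.67 to 15.5 FPKM in miR-186 and 16.3 to 25.1 FPKM in vector libraries. PRR5L (r 0.89) had 0.00991 to 1.75 FPKM in miR-186 and 7.81 to 13.7 FPKM in vector libraries, and ENTPD3 and C12orf75 were also at 0.89.

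Spans of 26 of the 54 genes overlap another gene of the fit, 23 of them one on the opposite strand, among them the pairs ATP6V1D with EIF2S1 and ERH with SLC39A9. The libraries keep the strand, but the setting used in counting is not given in the sources used here, so reads could have been shared within such pairs.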

How the data were processed

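RNA from 24 HaCaT libraries was sequenced with a stranded mRNA kit, all libraries in 1 pool, per the labels' protocols. The submitters' processing notes name STAR 2.6.0c, Cuffdiff 2.2.1 and the build hg38 (GRCh38), and the values the authors deposited are FPKM per gene. Annotation release, strand setting and scaling between libraries are not given in the sources used here. They were not rescaled, and read counts and absolute depth are unknown. Of 58381 gene IDs, 58261 are in GENCODE release 29, which gave coordinates and GC content.

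Values were analysed as log2(FPKM + 0.5) where the mean over libraries reached 0.5 FPKM. limma 3.58.1 (R 4.3.3, trend and robust moderation) was fitted to all 8 groups together, with Benjamini-Hochberg adjustment over 14228 genes and a threshold of 0.05. The fit was run on simulated data with independent errors. Those errors held no GC trend and no correlation between libraries, so the run does not bear on either. The GC correction fits a natural spline with 5 degrees of freedom to genes above 1.5 FPKM in each library. The genes and the lists were chosen with earlier results of these data known. Named genes are the 3 most abundant of each role group, the 5 lowest and 5 highest construct differences, the first and last by position and up to 10 called in each test. SLC39A9, MAX, SYNE2, EIF2B2 and ENTPD5 were named after their values were seen, as were the stretches of chromosome 14 before 60 Mb.

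Replicate numbers were checked as a pairing before blocked counts were compared. Correlations of deviations from the group means, across genes, were 0.341, 0.413 and 0.385 for numbers 1, 2 and 3 between weeks in miR-186 libraries at 100 nM. They also exceeded 0.1 for each number between doses in vector libraries at week 29, between weeks in vector libraries at 0 nM and between constructs at 0 nM and week 29. In these comparisons the number was treated as a pairing, which rests on the data since the labels are silent. Between constructs, which are different clonal lines, the values that passed were 0.214, 0.227 and 0.198. Passing therefore does not show that a number marks 1 clone. Trends over whole libraries, such as the GC slope, were not removed from these correlations. Promoter sequences are from RefSeq (GRCh38.p14). Alternatives were other pseudocounts, filters and scaling, the GC correction, replicate blocks, the compared groups alone and leaving out libraries.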

Additional observations from a re-analysis of the deposited data

How the results depend on the processing

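The rule that chose the genes used the construct contrast, so nothing is read from its direction being kept. The median difference between constructs kept its direction in every alternative run. At 0 nM and week 29 it was -0.433 with the GC correction, with or without the replicate block, against -0.32, and it ranged from -0.381 to -0.304 without 1 library or 1 replicate number at a time. The same ranges were -0.499 to -0.271 at 100 nM and week 29, -0.788 to -0.517 at 100 nM and week 12 and -0.796 to -0.595 at 0 nM and week 12.

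Counts of the 54 genes called moved more, and the cause was not tested. For iAs in vector libraries at week 12, 1 gene was called, 0 with no filter, with the GC correction, with the compared groups alone and without any 1 library, and 2 with median ratio scaling. There the correlations for numbers 1, 2 and 3 were 0.0715, 0.706 and 0.437. Number 1 missed the limit of 0.1, so the number was not treated as a pairing, which does not show that pairing was absent. The replicate block gave 6, the block within construct 4 and either with the GC correction 0. For the weeks in miR-186 libraries at 100 nM, 10 were called. The count was 4 with no filter, 1 with the GC correction, 1 with the compared groups alone, 18 with the replicate block, 17 with the block within construct, 3 and 4 with these blocks and the GC correction, and 1 to 14 without 1 library. For the weeks in miR-186 libraries at 0 nM, 1 was called, 2 with the GC correction, the replicate block, both together or the block within construct, 3 with that block and the GC correction, and 1 to 3 without 1 library. The block within construct with the GC correction was chosen after the data were seen. For the weeks in vector libraries at 100 nM, 1 was called, and 0 with the compared groups alone. For construct by week the count was 0, and 0 to 3 without 1 library or replicate number. Between replicate numbers within miR-186, 2 were called, 1 with no filter and 1 to 4 without 1 library. The replicate block changed no other call count by over 1.5 times. Absolute depth could not be read from FPKM, so counting error of low genes is unknown.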
